A study of Mus musculus with 31 samples.

Results

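The subcortical maternal complex (SCMC) is represented here by 6 genes out of 20544 gene symbols in the count table. They were chosen as the named subunits of a protein complex with 1 associated protein, by a rule that uses no measured value. The members were, however, proposed with earlier results of these data known, so their choice was not independent of those results. Nlrp5, Ooep, Tle6, Khdc3 and Padi6 belong to the complex, and Zbed3 encodes a protein that associates with it. Their counts were read in 31 single mouse embryos collected at the 2-cell stage, 32 h post-insemination, of which 16 were control- and 15 SER-generated. SER (Sperm Energy Restriction and Recovery) is a sperm treatment before in vitro fertilization. Cauda sperm lost their motility over 15 to 45 min in medium without energy substrates and then received the substrates again, whereas control sperm from the same males stayed in complete medium. All embryos were wild type, from C57BL/6J males of 12 to 14 weeks and superovulated CD1 females of 8 to 10 weeks, so both groups shared the strains, the oocyte source and in vitro insemination. Embryos of 1 session share sperm donors and an oocyte pool, and the session of each embryo was not given in the sources used here. The p-values therefore measure the spread between these embryos only.

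The SCMC assembles in the growing oocyte from maternal gene products, lies beneath the cortex of the egg and persists as protein into the cleaving embryo. Females that lack Nlrp5, Ooep, Tle6 or Padi6 produce embryos that stop at early cleavage, which is why these are called maternal-effect genes. The complex is linked to the cytoplasmic lattices of the egg, to spindle positioning and to the spread of organelles, and the mRNAs of its subunits are cleared as the embryo switches to its own transcription. The libraries measure mRNA with a poly(A) tail and not protein.

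Each Smart-seq3 library is 1 embryo, and the deposited values are whole-number counts per gene. Totals ranged from 532945 to 2085222 counts in control- and from 642321 to 3088396 counts in SER-generated embryos (medians 955806.5 and 1375557), so SER libraries were on average deeper. CPM is the usual unit of counts scaled to equal library totals. In an embryo, a lower level of a transcript per cell and fewer cells carrying it cannot be told apart.

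Control embryo 4 and SER embryo 15 stood apart from the other embryos and were singled out after their values were seen. They alone formed 1 of 3 clusters estimated from the 1000 most variable genes after removal of the group means. Genes of zygotic genome activation, 18 of them measured, summed to 48.3 CPM in control 4 and 154 CPM in SER 15, the lowest sum of each group, against group medians of 987 and 1386 CPM. Usp17lb, the activation gene with the highest mean CPM, was at 0 in both embryos. The sum of 18 other maternal-effect genes was the highest of each group in these embryos, at 27252 and 21226 CPM against medians of 10826 and 8946 CPM. Both carried the label of a 2-cell embryo, and the SER-versus-control estimates of the members are given with and without them. The results for gene lists, the ratios between members and the genes most alike are given with them only.

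The members lie on 5 chromosomes in the mouse build GRCm38 (GENCODE vM21), the same build as mm10. Nlrp5 is at chr7:23385889-23441922 on the plus strand, Tle6 at chr10:81590904-81601073 on the minus strand, Padi6 at chr4:140727355-140742643 on the minus strand and Zbed3 at chr13:95323612-95337841 on the plus strand. Ooep (chr9:78376109-78378725, minus strand) and Khdc3 (chr9:73101836-73104438, plus strand) share a chromosome but lie 5271670 bases apart, with 35 genes of the table between them. Khdc3 shares 790 of its 2050 exon bases (38.5%) with the same-strand gene model Gm20509, so its counts depend on how the authors' counting treated shared bases. No exon of the other members is shared with another gene, and no member is overlapped by exons of the opposite strand.

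The 250 bases before the start are printed for Zbed3, the member with by far the highest level, beside Padi6, the next in level, and Nlrp5, a core subunit. They come from RefSeq's promoter table on GRCm38.p6 and are written 5′ to 3′ on the strand of the gene. They are chr13:95323355-95323604 (plus) for Zbed3, chr4:140742644-140742893 (minus) for Padi6 and chr7:23385639-23385888 (plus) for Nlrp5. Capitals mark CANNTG (the E-box, the kind of element that the oocyte factor FIGLA binds), TAATTG and TAATTA (homeobox cores of the kind that NOBOX binds) and TATAA, searched on both strands, without overlaps between different motifs in these 3 windows. TATAA was added to the search after the sequences were seen.
Zbed3: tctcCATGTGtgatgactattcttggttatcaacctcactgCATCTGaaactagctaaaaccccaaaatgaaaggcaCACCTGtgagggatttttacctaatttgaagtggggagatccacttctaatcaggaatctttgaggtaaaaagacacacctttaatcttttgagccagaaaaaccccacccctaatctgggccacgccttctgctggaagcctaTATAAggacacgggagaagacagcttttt
Padi6: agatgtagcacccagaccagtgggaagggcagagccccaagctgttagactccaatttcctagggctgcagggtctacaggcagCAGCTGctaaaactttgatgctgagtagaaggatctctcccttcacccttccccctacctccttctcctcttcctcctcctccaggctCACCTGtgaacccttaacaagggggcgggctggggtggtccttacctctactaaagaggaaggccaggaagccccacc
Nlrp5: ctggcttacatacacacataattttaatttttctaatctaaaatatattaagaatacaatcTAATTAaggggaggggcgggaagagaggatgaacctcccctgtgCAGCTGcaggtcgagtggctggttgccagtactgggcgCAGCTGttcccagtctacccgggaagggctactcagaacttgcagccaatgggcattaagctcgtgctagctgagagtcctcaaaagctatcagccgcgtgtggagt
CANNTG was found in the windows of 6 of 6 members and in 66.2% of 32851 RefSeq windows of this length. TAATTA was found for Nlrp5 and TAATTG for Ooep, each in 1 of 6 members, against 4.84% and 7.17% of all windows. TATAA was found in Zbed3 at base -29, counted from -1 directly before the start, in 1 of 6 members and in 22.8% of all windows. The windows of Ooep, Tle6 and Khdc3 overlap their GENCODE gene models and are not printed.

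Zbed3 was above the other members in every embryo, and far above them by median. The smallest gap was to Ooep in control 3, with 3078 against 743 CPM. Zbed3 encodes a zinc finger protein that binds axin and, in the egg, associates with the SCMC. In control embryos Zbed3 ranged from 3078 CPM to 68499 CPM with a median of 15185 CPM, and in SER embryos from 3003 to 34721 CPM with a median of 8442 CPM. Its counts made up between 0.300% and 6.85% of the library of an embryo, the latter in control 4. Per kilobase of exon it was the highest gene in 17 of 31 embryos, never ranked below 29 in an embryo, and by its median level of 4571 CPM per kb held the first place of 20020 genes. The 3 highest control embryos, 4, 7 and 6, lay above every SER embryo, and the groups otherwise overlapped.

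**Figure D1:**
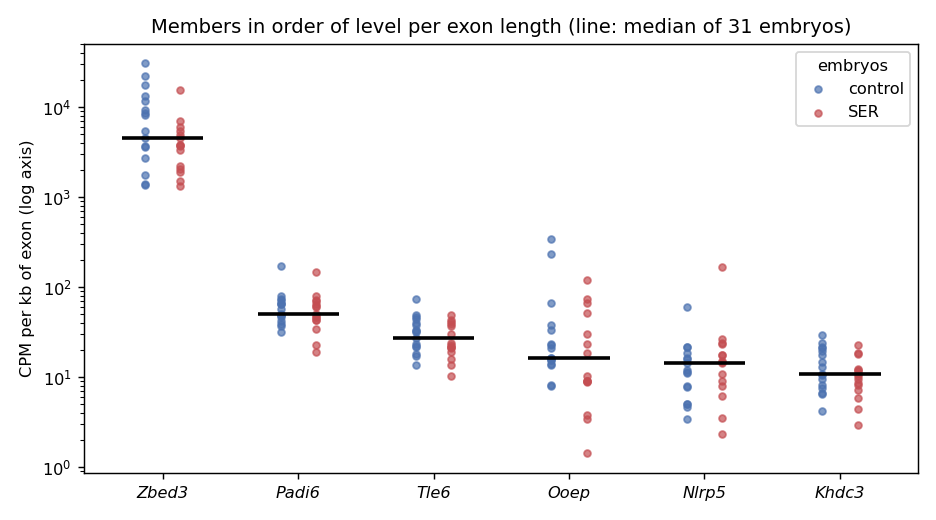
Level of each member per kilobase of exon (CPM per kb, log axis) in 31 embryos, 1 point per embryo, blue for control and red for SER, with the median over all embryos as a line. Zbed3 had a median of 4571 CPM per kb, and the other members had medians between 10.7 and 50.1 CPM per kb.

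The order of the levels per kilobase of exon, by the median over 31 embryos, was Zbed3, Padi6 (50.1 CPM per kb), Tle6 (27.5), Ooep (16.5), Nlrp5 (14.3) and Khdc3 (10.7). Within an embryo Zbed3 was higher than Padi6 in 31 of 31 embryos, by a median factor of 91.4. Padi6 was above Tle6 in 26 of 31 embryos, and Tle6 above Ooep in 21. Ooep exceeded Nlrp5 in 21 embryos, whereas Nlrp5 exceeded Khdc3 in only 15, so the lower places of the order were within the spread between embryos. With the longest annotated transcript in place of all exons, Tle6 had a median of 42.1 CPM per kb and Nlrp5 came before Ooep.

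Nlrp5 encodes MATER, the NLR-family scaffold of the complex. In control embryos its level ranged from 16.7 to 296 CPM with a median of 56.7 CPM. In SER embryos it ranged from 11.5 to 805 CPM with a median of 71.0 CPM. Control 4 and SER 15 held the highest value of their groups, and no other embryo of either group exceeded 130 CPM. Without both, the coefficient of variation over embryos was 53.6%, against 152% with them.

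Ooep encodes FLOPED, a small KH-like protein that binds MATER in the core of the complex. It was the most variable member, from 17.0 to 743 CPM (median 40.3 CPM) in control and from 3.04 to 256 CPM (median 22.2 CPM) in SER embryos. The highest control value belonged to embryo 3, followed by control 4 with 498 CPM, and SER 15 was the highest SER embryo. The 3 lowest SER embryos, 13, 9 and 12, lay below every control embryo, and the lowest count of any member, 6 counts, was that of Ooep in SER 9. Its biological coefficient of variation, the spread between embryos of 1 group that edgeR estimates beyond counting error, was 1.08, at the 94.1th percentile of the tested genes, against 0.61 for genes of like abundance. The coefficient of variation over all 31 embryos was 168%, and 187% without control 4 and SER 15.

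Tle6 belongs to the Groucho family of co-repressors by sequence and is the third core subunit, beside MATER and FLOPED. Its levels ranged from 42.1 to 230 CPM (median 99.96 CPM) in control and from 31.9 to 150 CPM (median 70.0 CPM) in SER embryos. Its biological coefficient of variation was 0.47, the lowest of the members over 31 embryos, against 0.62 for genes of like abundance. Without control 4 and SER 15 the coefficient of variation of its CPM was 47.2%, above the 30.6% of Padi6. The embryos that stood apart were not high for Tle6, with 103 CPM in control 4 and 92.7 CPM in SER 15.

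Khdc3 encodes FILIA, a KH-domain protein tied to genome stability in the early embryo. It was the lowest member per kilobase of exon, and its levels ran from 8.74 to 60.0 CPM (median 24.4 CPM) in control and from 6.02 to 46.8 CPM (median 20.9 CPM) in SER embryos. Its counts were between 8 and 71 per embryo, which limits the precision of each value. Control 4 (19.6 CPM) and SER 15 (16.7 CPM) were below the median of their groups.

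Padi6 is the peptidylarginine deiminase family member of the oocyte, needed for the cytoplasmic lattices. It ranged from 80.0 to 435 CPM (median 136 CPM) in control and from 48.2 to 373 CPM (median 127 CPM) in SER embryos. Control 4 and SER 15 were the highest of their groups, and the next highest embryo had 200.5 CPM. Its coefficient of variation over embryos was 51.8% with both of them and 30.6% without.

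**Figure D2:**
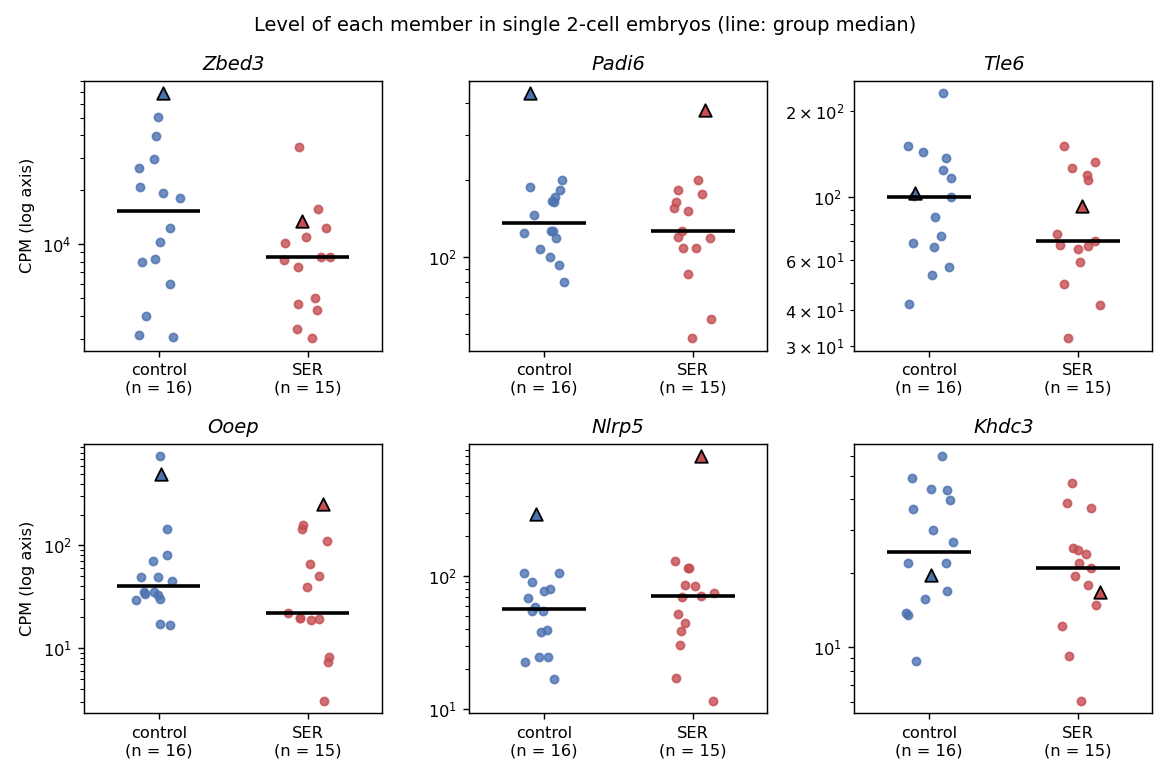
Level of each member (CPM, log axis, a separate scale for each gene) in 16 control embryos (blue) and 15 SER embryos (red), with triangles for control 4 and SER 15 and a line for the group median. The groups overlapped for every member, and the triangles are the highest points of both groups for Nlrp5 and Padi6 but lie among the other embryos for Tle6 and Khdc3.

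**Figure D3:**
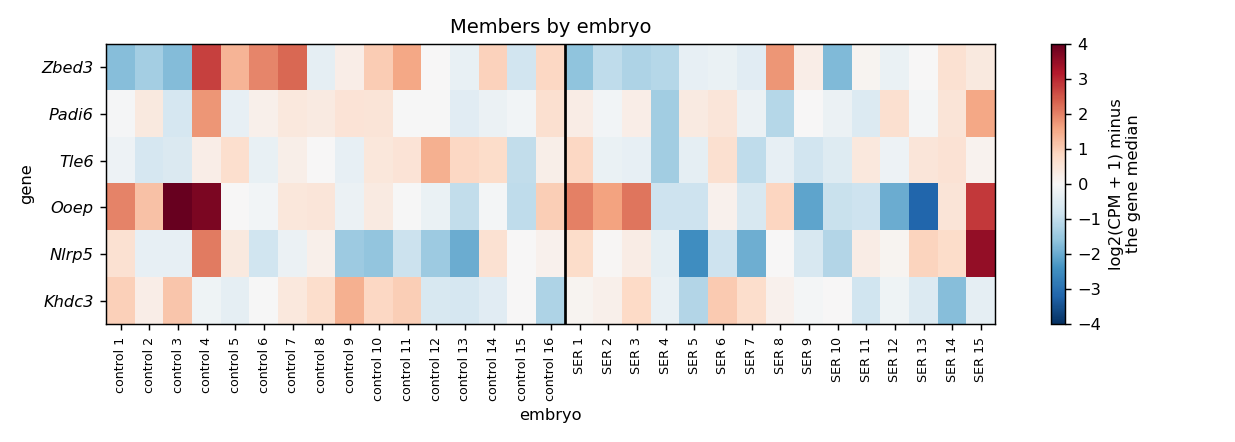
Level of each member by embryo as log2(CPM + 1) minus the median of the gene over 31 embryos, with a colour scale that ends at -4 and 4 and a black line between control and SER embryos. Control 4 is high for Zbed3, Padi6, Ooep and Nlrp5, SER 15 for Padi6, Ooep and Nlrp5, and control 3 for Ooep with low Zbed3.

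Setting SER- beside control-generated embryos asks whether treating the sperm went along with a different level of these mRNAs relative to the rest of the library. None of the 6 members passed the test, and 5 of the 6 estimates were below 0, as were 4056 of all 8571 tested genes. Zbed3 came closest, with a log2 fold change (SER minus control) of -1.08. For Zbed3 13 of 15 SER embryos were below the control median, but only 10 of 16 control embryos were above the SER median. The test was the quasi-likelihood test of edgeR, fitted to the counts of 8571 genes with Benjamini-Hochberg adjustment. With an adjusted p under 0.1, 0 of 6 members were called, against 0.0% of all tested genes. An unadjusted p under 0.05 was found for 1 of 6 members, Zbed3, and for 5.73% of all tested genes (491 genes), with 3.55% of all tested genes below 0 as Zbed3 was (304 genes). The median log2 fold change was -0.36 over the members and 0.02 over all tested genes.

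The Zbed3 estimate of -1.08 had an SE of 0.40 and a 95% interval of -1.89 to -0.26 (p = 0.0108, adjusted p = 0.718, rank 129 of 8571 genes by p). Ooep had the largest estimate and the largest error, -1.10 with an SE of 0.61 and an interval of -2.33 to 0.14 (adjusted p = 0.869). For Ooep 9 of 15 SER embryos were below the control median, and 14 of 16 control embryos were above the SER median. Khdc3 differed by -0.41 (interval -1.05 to 0.23) and Tle6 by -0.31 (interval -0.80 to 0.19), each with 10 of 15 SER embryos below the control median and an adjusted p of 0.935. For Padi6 the estimate was -0.15 (interval -0.68 to 0.38, adjusted p = 0.976). Nlrp5 alone was above 0, at 0.64 (interval -0.31 to 1.60, adjusted p = 0.935), with 9 of 15 SER embryos above the control median. The intervals of Padi6 and Tle6 were the narrowest and that of Ooep the widest.

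Single embryos carried several of these values. Without SER 15 the Nlrp5 estimate turned to -0.22, and without control 4 it was 1.03. The Ooep estimate was -0.37 without control 3 and -0.72 without control 4, and the Tle6 estimate was -0.19 without control 12. Padi6 turned to 0.065 without control 4 and was -0.34 without SER 15. The Zbed3 estimate stayed below 0, at -0.78 without control 4 and -1.35 without SER 8. Without control 4 and SER 15 together, a choice made after the data were seen, the estimates were 0.19 for Nlrp5, -1.12 for Ooep, -0.32 for Tle6, -0.43 for Khdc3, -0.13 for Padi6 and -0.84 for Zbed3 (adjusted p = 0.573 for Zbed3). With limma voom and sample quality weights 1 of 6 members was called, Zbed3 at -1.51 (adjusted p = 0.0145), against 9.89% of all tested genes.

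**Figure D4:**
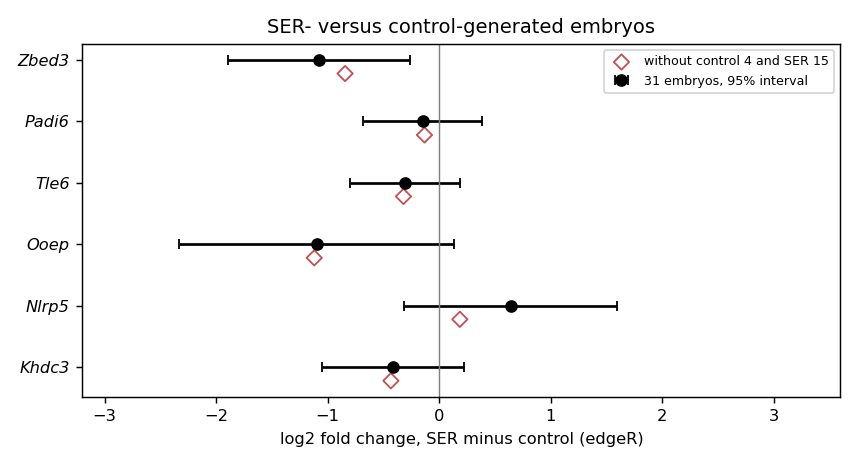
Log2 fold change of each member, SER minus control, by edgeR (black points with 95% intervals, 31 embryos) and without control 4 and SER 15 (open red diamonds). The interval of Zbed3 lies below 0 (-1.89 to -0.26) and the other 5 intervals hold 0, and the diamond of Nlrp5 is at 0.19 against 0.64.

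Over all embryos the level of Zbed3 was lower in deeper libraries, whereas within SER embryos that of Nlrp5 was higher in them. Across 31 embryos the log2 level of Zbed3 and the log2 library total had a Pearson r of -0.64 and a Spearman rho of -0.63. These are given as a description because both quantities come from the same library. The Spearman coefficient was -0.77 within control and -0.29 within SER embryos, and r was -0.66 without the 2 embryos farthest from the median total. The level of Zbed3 also moved against the summed CPM of the zygotic activation genes, with a rho of -0.70 over all embryos, -0.83 within control and -0.41 within SER embryos, and -0.67 without control 4 and SER 15. With the log2 library total as a covariate the Zbed3 estimate was -0.18 (adjusted p = 0.986). The groups differed in depth, and the part of depth in the Zbed3 difference was not tested. For the other 5 members, rho with the library total lay between -0.21 and 0.23 over all embryos and between -0.19 and 0.08 within control embryos. Within SER embryos it was 0.49 for Nlrp5 and 0.36 for Padi6, and between -0.22 and 0.17 for Ooep, Tle6 and Khdc3. The Nlrp5 estimate also turned with the library total as a covariate, from 0.64 to -0.095.

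**Figure D5:**
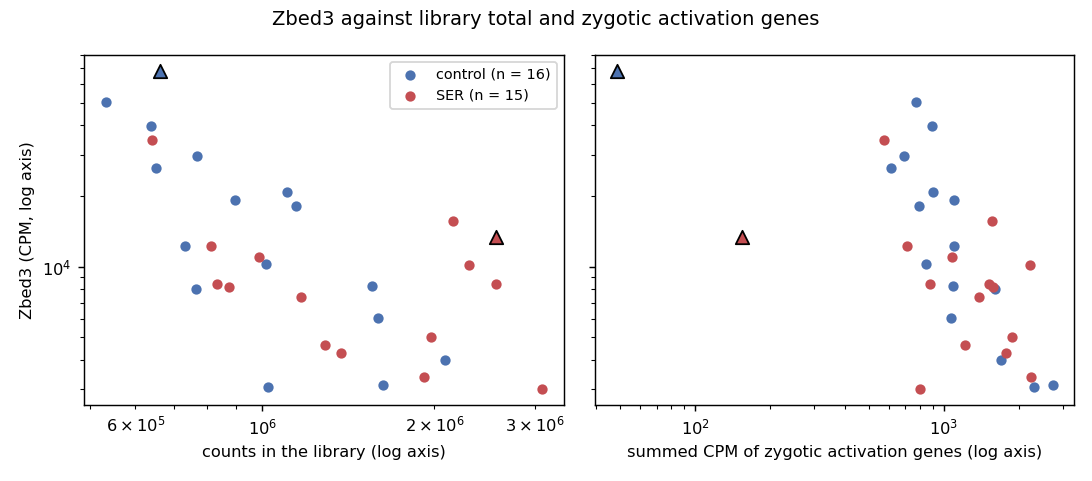
Zbed3 level (CPM, log axis) against the counts in the library (left, log axis) and against the summed CPM of zygotic activation genes (right, log axis), 1 point per embryo, blue for control and red for SER, with triangles for control 4 and SER 15. Zbed3 was lower in deeper libraries (rho -0.63) and in embryos with more zygotic activation counts (rho -0.70), and the triangles lie at the lowest activation sums of their groups.

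Of the other 2 estimated clusters of embryos, the larger held 11 control and 10 SER embryos and the smaller 4 of each group. The control median of Zbed3 was 8290 CPM and its SER median 6244 CPM in the larger cluster, and of 22762 and 12934 CPM in the smaller. Nlrp5 was higher in the SER embryos by median in both, with 48.2 against 39.1 CPM and 94.6 against 84.2 CPM. For Khdc3 the larger cluster gave medians of 36.6 (control) and 23.0 CPM (SER), and the smaller gave 16.3 and 17.2 CPM. These clusters were estimated from the same counts and are not the batches of the study.

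Ratios between members were formed within each embryo, with 1 count added to each member, so that both values share a library total. Ratios with Zbed3 can still move with depth, as Zbed3 itself did. For all 15 pairs of members, the 95% interval of the SER-minus-control difference in mean log2 ratio held 0. The largest differences were those of Ooep over Nlrp5 (-1.04, interval -2.16 to 0.09) and of Zbed3 over Nlrp5 (-1.002, interval -2.12 to 0.12). Zbed3 over Ooep differed least, by 0.03, but with an interval of -1.53 to 1.59.

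The members varied together only weakly between embryos. The median Spearman rho of the 15 pairs over 31 embryos was 0.19, with 11 pairs above 0, against a median of 0.0024 and a 75th percentile of 0.22 over all pairs of tested genes. All values are descriptions, since embryos share depth and library effects. Nlrp5 and Ooep had the highest rho over 31 embryos, at 0.46. It was 0.58 within control and 0.33 within SER embryos, and 0.36 without control 4 and SER 15. Ooep and Khdc3 had a rho of 0.40, and of 0.44 without these embryos, then the highest of the pairs. Nlrp5 and Padi6 had a rho of 0.19, and of 0.009 without them. Their Pearson r was 0.44 and became -0.02 without them, so this linear relation rests on those embryos. Tle6 and Khdc3 were at the other end, with a rho of -0.29. Within SER embryos the highest rho was that of Tle6 and Padi6, 0.61, against -0.30 within control embryos. Without control 4 and SER 15 the median over pairs was 0.10.

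By Spearman rho of log2 normalised levels over 31 embryos, the genes most like Nlrp5 were Zfp57 (0.84), a maternal-effect factor for imprinted regions, and the NLR-family genes Nlrp4g (0.79) and Nlrp9b (0.77), which have close copies that may share reads. Those most like Ooep were Cd55 (0.86), Clybl (0.82) and the oocyte-secreted protein gene Oosp2 (0.81). For Tle6 they were Aldh2 (0.71), Psd2 (0.70) and Isoc1 (0.68), and for Khdc3 Usp1 (0.79), Clta (0.71) and H3f3a (0.70). Among the genes most like Padi6 were Gins4 (0.71) and Ss18 (0.63). Zbed3 was most like Atxn2l (0.88), Foxo3 (0.86) and Tnrc18 (0.85). No member appeared among the 3 genes most like another member. For the mean standardised level of all 6 members they were Uchl1 (0.83), Ggct (0.80), Tcl1b2 (0.78), Tcl1b1 (0.78) and Pdlim1 (0.77), of which the Tcl1b genes have close copies.

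Genes whose proteins are reported partners of the complex gave 5 of 5 estimates above 0, none called, with a median log2 fold change of 0.33 against 0.02 over all tested genes. Of all 8571 tested genes, 4515 had estimates above 0. Nlrp4f, an NLR-family component of the complex, had a log2 fold change of 0.33, Uhrf1, a partner of the DNA methyltransferase, 0.41, Nlrp14 0.01 and Cfl1, an actin-severing protein, 0.09 (adjusted p between 0.936 and 0.999). Nlrp4f and Uhrf1 were also highest in SER 15, with 1407 and 1255 CPM against SER medians of 297 and 192 CPM. Of 18 other maternal-effect genes 7 estimates were above and 11 below 0, with a median of -0.02 and none called. Among their highest, Bcl2l10 was at -1.10 (adjusted p = 0.501), Btg4, which drives clearance of maternal mRNA, at -0.58 (adjusted p = 0.892), Dppa3 at -0.13 and Zfp57 at 0.30.

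Over all 8571 tested genes, 4515 estimates were above and 4056 below 0. Markers of the oocyte gave 4 estimates above and 11 below 0 of 15 tested, with a median of -0.26 and none called. Those with the highest mean CPM were Tcl1 at -0.33, the growth factor gene Bmp15 at -0.17, Rfpl4 at -1.02 and Oosp3 at -1.95 (adjusted p = 0.178). The 3 with an unadjusted p under 0.05 were Oosp3, Rfpl4 and Uchl1 (-0.65), all below 0, 3 of 15 against 3.55% of all tested genes. Uchl1 is named after its value was seen. The list was proposed with earlier results of these data known, so this share is not independent of them and is a description only. Of the 16 tested zygotic activation genes 13 were above 0, with a median of 0.19 and none called. Usp17lb, Zfp352, Eif1a and Zscan4d had estimates of 0.16, 0.31, 0.06 and 0.49, and most genes of this list have close copies that may share reads. Cumulus cell markers summed to between 10.6 and 1685 CPM in control embryos, the highest in control 5, and to between 3.51 and 302 CPM in SER embryos. Amhr2 was the 1 of 11 that passed the filter, and it made up much of the sum. Its medians were 105 CPM in control and 139 CPM in SER embryos, against 139 and 141 CPM for the sum. In SER 7, the embryo with the highest SER sum, Amhr2 had 295 CPM. Cyp11a1, a steroid-synthesis enzyme, had medians of 11.8 CPM in control and 1.23 CPM in SER embryos, and 1423 CPM in control 5 against 71.8 CPM in the next control embryo. In the fit without the filter on low counts it was at -5.35 (adjusted p = 0.0256), and the inhibin subunit genes Inha and Inhba were at -4.80 and -4.23 (adjusted p = 0.0641 and 0.0646), both also highest in control 5. Inha had 53.7 CPM in control 5 against 1.57 CPM in the next control embryo, and was at 0 in 11 of 16 control and 14 of 15 SER embryos. That fit called 504 of 17803 genes. Star, the other of the highest markers, was at -0.44 in that fit, and the defining markers Ptx3 and Fshr were each at 0 in 30 of 31 embryos. Inha, Ptx3 and Fshr are named after their values were seen. Without control 5 the Zbed3 estimate was -1.06 and that of Ooep -1.17.
None of the 7 sperm genes passed the filter, and their sum reached at most 30.9 CPM. Prm2, a protamine gene, had the highest mean, 4.04 CPM, and Akap4, Smcp and Tnp1 had means of 0.676, 0.596 and 0.535 CPM, with 0 counts in at least 24 of 31 embryos each. The part of these lists in the values of the members was not tested.

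Relatives of the members within their gene families are compared with them per kilobase of exon, as medians over 31 embryos. Padi1 to Padi4 had levels of at most 0.479 CPM per kb, against 50.1 CPM per kb for Padi6. Zbed4 and Zbed6 had levels of 2.97 and 2.62 CPM per kb, against 4571 CPM per kb for Zbed3. Tle4, at 14.3 CPM per kb, was closest to Tle6 at 27.5 CPM per kb, while Tle1, Tle2 and Tle3 were between 0.876 and 2.31 CPM per kb. Of the NLR-family relatives, Nlrp9c (56.7 CPM per kb), Nlrp9a (33.9), Nlrp4g (26.0), Nlrp4e (16.9) and Nlrp4a (16.4) were above Nlrp5 (14.3 CPM per kb). The Nlrp5 value is over 4847 exon bases, whereas its longest annotated transcript has 3508, so its place depends on the length used. Nlrp4g, as said above, has close copies that may share reads. Khdc1b, a KH-domain gene, was far above Khdc3, with 555 CPM per kb against 10.7 CPM per kb. Of the 17 relatives tested, 7 estimates were above and 10 below 0, with a median of -0.06 and none called, among them Nlrp9c at -0.45, Khdc1b at -0.25, Nlrp9a at 0.09 and Dppa5a at -0.06. Dppa5a lies 7931 bases from Ooep with no gene of the table between them, and differed from it in the embryos that stood apart. Dppa5a was at 3.02 CPM in control 4 and at 4.67 CPM in SER 15, against group medians of 114 and 207 CPM, where Ooep had 498 and 256 CPM.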

How the data were processed

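Smart-seq3 libraries of 31 single 2-cell embryos were analysed. The authors separated 5′ reads with a molecular identifier from internal reads, used STAR for alignment, collapsed duplicates (UMI-tools for the former, Picard for the latter), and obtained gene counts by featureCounts. The deposited values are raw counts, and the submitters' processing notes name mm10. The annotation and strand setting were not given in the sources used here. Counting error is at least as large as the counts imply, because internal reads have no identifier.

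From the deposited counts, groups were compared by edgeR 4.0.16 (R 4.3.3) with the quasi-likelihood test, TMM normalization and the filter filterByExpr (minimum count 10, minimum total 15), which kept 8571 genes and all 6 members, without covariates, since the batch of each embryo is not named and ComBat-seq could not be repeated. An adjusted p under 0.1 was a call. The standard error is the estimate divided by the square root of F. Exon lengths came from GENCODE vM21, in which 20020 symbols were found. The rule for the members uses no measured value, but members and gene lists were proposed with earlier results of these data known, so their choice was not independent of them. The text names all members, the 4 genes of each list with the highest mean CPM plus any called, and the genes most alike (3 per member, 5 for their mean), with exceptions stated and further family relatives named after their values were seen, and 1 gene among those most alike is not reported here. No 2 libraries of a group were identical. Alternatives were DESeq2 1.42.0, DESeq2's size factors, limma 3.58.1 voom with quality weights, other filters, 3 estimated clusters, the library total, the replicate number as a block, a threshold of 0.05, other scalings and lengths, and leaving out embryos.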

Additional observations from a re-analysis of the deposited data

How the results depend on the processing

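Over all genes, 0 were called by edgeR (491 with an unadjusted p under 0.05), 504 without the filter on low counts, 49 by DESeq2, 848 by limma voom with quality weights and 41 with the 3 estimated clusters as a term. Of the members 0 were called in each of these except voom, which called 1, Zbed3 at -1.51; the cause was not tested. Nlrp5 turned from 0.64 to -0.25 by DESeq2, which replaced the count of SER 15 as an outlier (and that of control 3 for Ooep, then -0.38), and to -0.095 with the library total as a covariate. Ooep was -0.16 by voom. Leaving out 1 embryo at a time gave -0.22 to 1.03 for Nlrp5, -1.50 to -0.37 for Ooep, -0.39 to -0.19 for Tle6, -0.54 to -0.32 for Khdc3, -0.34 to 0.065 for Padi6 and -1.35 to -0.78 for Zbed3, with no member called; Nlrp5 was -0.22 without SER 15 and Padi6 0.065 without control 4. Over the longest transcript Tle6 had 42.1 CPM per kb. With Zbed3 left out of the library totals, chosen after seeing the data, Ooep was -1.07 and Nlrp5 0.65. Depth limits Khdc3 and Ooep, which had as few as 8 and 6 counts in an embryo.

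With the replicate number as a replicate block over the 15 shared numbers, without control 16, 0 genes were called, and the estimates were 0.26 for Nlrp5, -0.83 for Ooep, -0.32 for Tle6, -0.49 for Khdc3, -0.11 for Padi6 and -0.71 for Zbed3 (adjusted p = 0.999). Deviations of same-numbered embryos correlated over 0.1 in 8 of 15 pairs, with a median of 0.11 against 0.03 for embryos with other numbers. Of the control embryos, 4 correlated best with their own number. These values do not settle whether the numbers pair the embryos, so the fit with the block is given beside the main fit.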
